A study of Homo sapiens with 15 samples.

Results

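WDR5 peaks that stand early in the WDR5 list, are narrow and lie on no peak of tagged MYC are described here. They were chosen by 3 measured values: a place in the first 10% of the 17171 lines of the list, a width under 624 bp, and no base shared with a peak of wild-type MYC (WT-MYC) or of the WDR5-binding mutant (WBM-MYC). The rule found 721 peaks among the 1059 narrow peaks of those lines. Another 311 of the 1059 overlapped a WT-MYC peak and serve as the comparison below, and the remaining 27 overlapped a WBM-MYC peak alone.

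The peaks come from chromatin immunoprecipitation with sequencing (ChIP-seq) in HEK293, a human embryonic kidney cell line. The groups were HEK293 cells transduced with a retrovirus for FLAG-tagged WT-MYC, HEK293 cells transduced with one for FLAG-tagged WBM-MYC, HEK293 cells precipitated with an antibody to endogenous WDR5, transduced cells with the empty vector, and HEK293 cells precipitated with rabbit IgG. Each of the 5 groups has 3 libraries from independent biological replicates, and the transduced cells were precipitated through the FLAG tag. A single peak list was at hand for WDR5 (17171 peaks), for WT-MYC (2527) and for WBM-MYC (690), so no value has a spread between replicates, and peaks are the units of every interval and test. The tag reports introduced MYC alone, so endogenous MYC in these cells is not seen, and WDR5 was mapped in cells without introduced MYC. Positions are given in hg19, and read depth is unknown.

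WDR5 is a scaffold of the complexes that methylate histone H3 at active promoters, and it is also found in other chromatin complexes. MYC is a transcription factor that pairs with MAX on DNA and drives genes of growth and protein synthesis. WDR5 binds MYC directly through a conserved segment of MYC, and that contact is weakened in WBM-MYC. A WDR5 peak without a MYC peak is therefore a site where the scaffold was called in the absence of a called site for either introduced protein. A peak missing from a list may still have been bound below the unstated threshold of that list.

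Absence of a MYC peak was less common early in the WDR5 list than in the list as a whole. The 721 peaks were 68.1% of the 1059 early narrow peaks (exact 95% interval 65.2 to 70.9%), against 87.3% of the narrow peaks on later lines (86.7 to 87.9%) and 85.6% of all WDR5 peaks. Among early peaks of 624 bp or more, 334 of 658 had no MYC peak (50.8%, 46.9 to 54.6%). These shares are set by the values that chose the peaks and carry no test. No source used here states what orders the list.

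Within the early lines the share without MYC was higher in later parts. Of the 1059 peaks in 5 parts of nearly equal size by file position, the first held 117 of 212 without MYC (55.2%), and the following parts 64.6, 68.4, 75.5 and 76.8%. By width in 5 such parts, from narrowest to widest, the shares without MYC were 79.7, 74.5, 65.6, 59.0 and 61.6%. With both orders combined, 13 of 38 peaks that were in the first part by position and the widest part by width had no MYC (34.2%). The first part by position held 4 of the narrowest peaks, 2 of them without MYC (50%). In the last part by position, 31 of 39 of the widest peaks (79.5%) and 55 of 67 of the narrowest (82.1%) had no MYC. The chosen peaks had a median width of 455 bp (quartiles 428 to 521 bp), and those with WT-MYC a median of 486 bp (444 to 552 bp). The median line was 1069 for the chosen peaks and 809 for those with WT-MYC. A wider peak meets a MYC peak more easily, and the rule used width, so these differences are descriptions. Width and line were weakly related within both classes, with Spearman's rho of -0.17 over the 721 peaks and -0.16 over the 311. All points come from 1 list, and the rule cut both values, so rho does not describe the list as a whole.

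**Figure D1:**
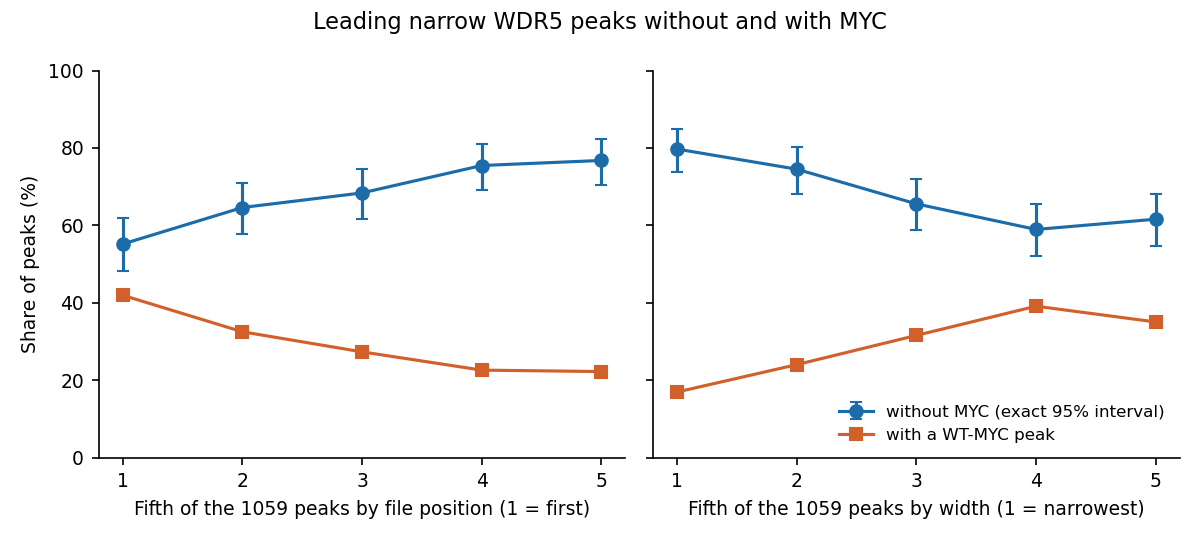
Share of the 1059 early narrow WDR5 peaks (y axis, %) without MYC (circles, bars are exact 95% intervals) and with a WT-MYC peak (squares), by part of the list (left) and by width (right). The share without MYC is 55.2% in the first part by position and 76.8% in the last, and 79.7% among the narrowest peaks and 61.6% among the widest.

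The first members in file order show how varied their surroundings are. The earliest, on line 91, spans 3081430 to 3081949 of chromosome 16 (520 bp) and lies 7076 bp from another WDR5 peak and 6945 bp from a WT-MYC peak. Line 96 spans 60640906 to 60641432 of chromosome 20 and lies 55339 bp from the nearest MYC peak. Line 98 spans 75954208 to 75954741 of chromosome 17, with the nearest WDR5 peak 169753 bp and the nearest MYC peak 255326 bp away. Of these first 3, then, only the earliest has MYC in its immediate neighbourhood. Line 108 spans 137673771 to 137674248 of chromosome 5, 6145 bp from another WDR5 peak and 158728 bp from a MYC peak. Line 110 spans 50394094 to 50394651 of chromosome 19, with a WDR5 peak 348 bp away and a WT-MYC peak 379 bp away that lies on a WDR5 peak.

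The peaks at the limits of the rule show what lies just inside and just outside it. The last member, on line 1715, spans 49259433 to 49259803 of chromosome 12, and the first narrow peak without MYC beyond the limit, on line 1719, spans 76649686 to 76650105 of chromosome 4. The last member lies 183443 bp from the nearest MYC peak, and the peak beyond the limit 261758 bp. Of the 721 members, 2 have the largest width that the rule admits, at 70882811 to 70883433 of chromosome 5 and at 226069816 to 226070438 of chromosome 1. The single early peak without MYC of 624 bp spans 213031249 to 213031872 of chromosome 1.

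Spacing between WDR5 peaks, which the rule did not use, ranged from overlapping neighbours to gaps far above 5 kb. Of the 721 members, 127 overlapped or touched another WDR5 peak (17.6%), 82 had the nearest one at up to 1 kb, 54 at over 1 kb and up to 5 kb, and 458 (63.5%) had none within 5 kb. Over all WDR5 peaks, 24.1% overlapped or touched another, and over early narrow peaks with WT-MYC 19.6% did. Another lay within 1 kb of 29.0% of members and of 40.5% of all WDR5 peaks. The median gap was 17266 bp in members (95% interval of the median 12343 to 21995 bp). It was 8947 bp (5621 to 13255 bp) in peaks with WT-MYC and 6946 bp over all WDR5 peaks. Another WDR5 peak lay within 5 kb of 263 of the 721 members (36.5%, 32.96 to 40.1%) and of 43.4% of the 311 peaks with WT-MYC (37.8 to 49.1%), where 47.9% of all WDR5 peaks had such a neighbour. The difference of -6.93 percentage points (-13.5 to -0.458) passed a two-sided Fisher's exact test with p = 0.0368, also after adjustment over the 2 tests of distance (adjusted p = 0.0368). Stratified by chromosome, the call was lost (Mantel-Haenszel odds ratio 0.803, 0.601 to 1.07, exact conditional p = 0.130). The share was lower in members on 11 chromosomes and higher on 12. Some of these directions rest on few peaks with WT-MYC, such as 1 on chromosome 22, 2 on chromosome 14 and 4 on chromosome 3. Without a width limit the difference was 0.911 points the other way (-3.67 to 5.38, Fisher's exact p = 0.700). It also missed the threshold where 50% of the shorter peak had to be shared (-3.09 points), at a limit of 1 kb (-3.81 points), in the first 5% of lines (-7.31 points) and with the first 50% of each MYC list (-7.12 points). Neighbouring peaks are not independent, so p-values over peaks can be too small.

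**Figure D2:**
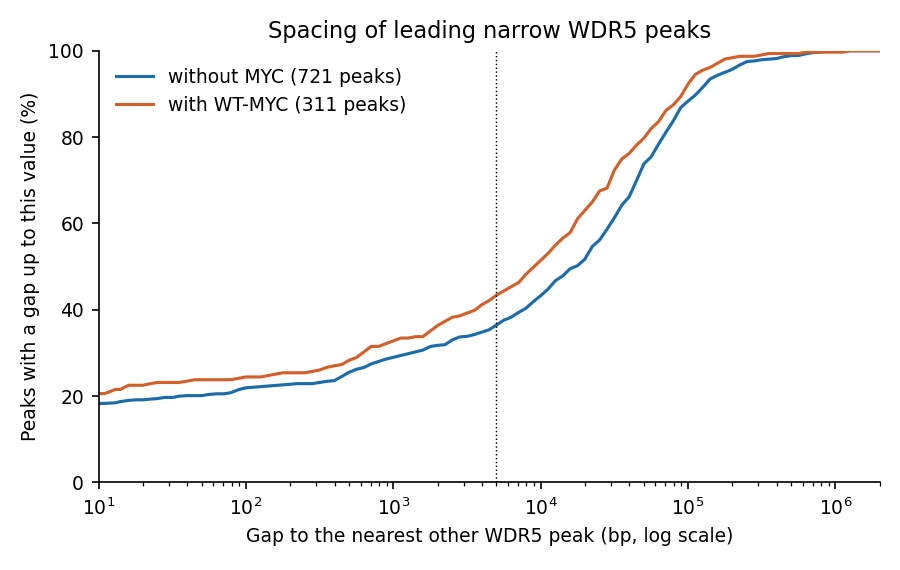
Cumulative share of peaks (y axis, %) by gap to the nearest other WDR5 peak (x axis, bp, log scale) for early narrow WDR5 peaks without MYC (721) and with WT-MYC (311); the dotted line marks 5 kb. At that gap the curves stand at 36.5% without MYC and 43.4% with WT-MYC.

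The nearest WDR5 peak carried a MYC peak for 106 of the 721 members (14.7%, 12.2 to 17.5%), close to the 14.3% over all WDR5 peaks. The peaks that the 127 members overlapped or touched had a median line of 8775, 16 of them stood in the first 10% of lines, and 2 carried a MYC peak. Of the 61 peaks with WT-MYC that overlapped or touched a WDR5 peak, 55 did so with one that carried MYC. A MYC peak is up to 496 bp wide and can reach both of a pair of adjoining WDR5 peaks, so this contrast follows in part from the rule. Where the gap was above 0 bp, the nearest WDR5 peak carried MYC for 104 of 594 members (17.5%) and for 56 of 250 peaks with WT-MYC (22.4%), with 14.1% over all WDR5 peaks. After merging of overlapping WDR5 peaks the members fell into 714 regions, and the region of 3 members held a WDR5 peak with MYC. Over wider windows, members had a median of 12 other WDR5 peaks within 500 kb on each side (quartiles 7 to 21), and peaks with WT-MYC had 13 (8 to 22). Against other early WDR5 peaks alone, of any width, the median gap was 206636 bp in members (175382 to 231139 bp) and 131407 bp in peaks with WT-MYC (105058 to 152233 bp).

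Members were present on all 23 chromosomes of the list, and chromosome 17 held a smaller share of them than of the peaks with WT-MYC. It held 54 of the 721 members (7.49%, 5.68 to 9.66%) and 49 of the 311 peaks with WT-MYC (15.8%, 11.9 to 20.3%), a difference of -8.27 points (-13.04 to -4.05). Its Benjamini-Hochberg adjusted p was 0.0019 by a two-sided Fisher's exact test. Of the 19 chromosomes with at least 20 peaks of both classes together, this was the only one past the test, 5.26% of those tested. The odds ratio for chromosome 17 was 0.450 when stratified by 5 parts of file position (0.287 to 0.693, exact conditional p = 0.00023) and 0.410 by width quartile (0.269 to 0.651, exact conditional p = 7.85e-05), both unadjusted and added after the values were seen. The call was lost among the first 5% of lines (adjusted p = 0.243), without a width limit (0.0651) and with the first 50% of each MYC list (0.0638), all by Fisher's exact test. Since WT-MYC peaks define the comparison class, its chromosomes partly restate where WT-MYC peaks lie, and chromosome 17 holds 211 of them, 8.35% of that list, against 6.74% of WDR5 peaks.

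On chromosome 3, 34 of 38 early narrow peaks had no MYC and 4 had WT-MYC, so that it held 4.72% of members and 1.29% of peaks with WT-MYC (adjusted p = 0.0589 by Fisher's exact test). Chromosome 7, with 43 members and 8 peaks with WT-MYC, and chromosome 14, with 21 and 2, also missed the threshold (adjusted p = 0.101 for both, Fisher's exact test). Without a width limit chromosome 14 was the 1 chromosome past the test, and with the first 20% of lines chromosomes 1, 3, 11, 14, 15 and 17 passed. Chromosome 22 had 16 members and 1 peak with WT-MYC and held too few peaks to enter the test. Chromosome 15 had nearly equal numbers, 16 members and 14 peaks with WT-MYC. The most members were held by chromosomes 1 (93), 19 (72) and 17 (54). Chromosomes 18 and X held 5 each. Chromosome 19 had 9.99% of the members, 10.9% of the peaks with WT-MYC and 6.91% of all WDR5 peaks.

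**Figure D3:**
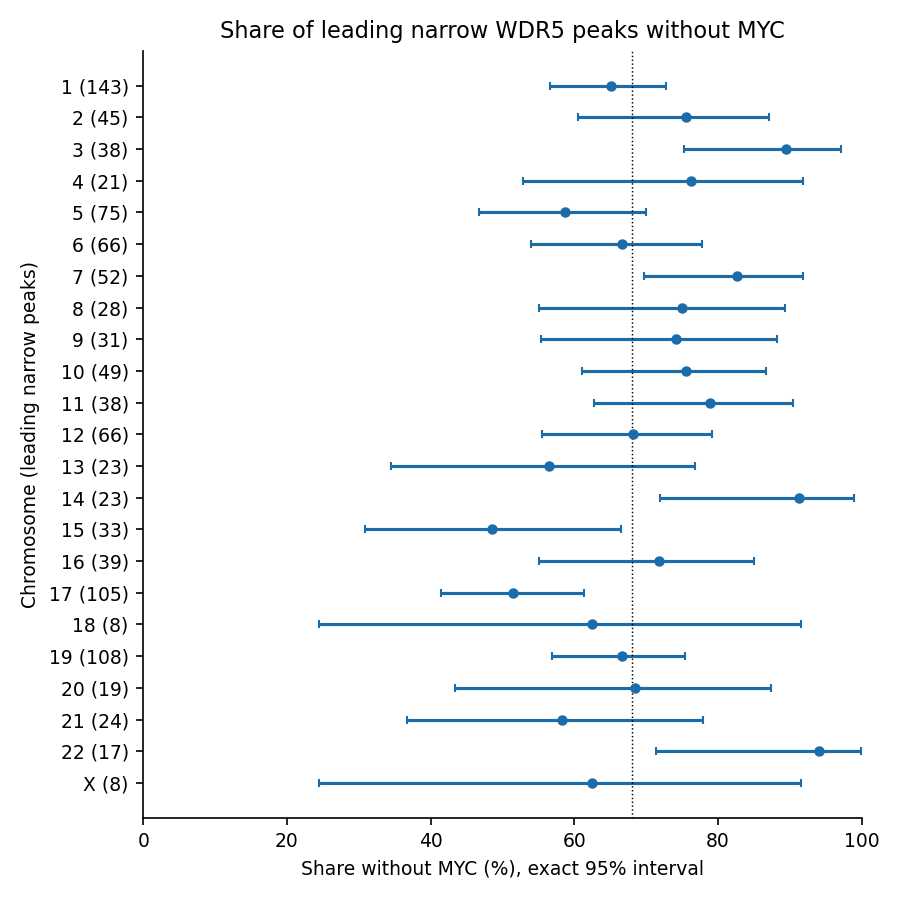
Share of early narrow WDR5 peaks without MYC on each chromosome (x axis, %, bars are exact 95% intervals); the number of early narrow peaks is in brackets on the y axis, and the dotted line marks the 68.1% over all chromosomes. Chromosome 17 stands at 51.4% and chromosome 3 at 89.5%.

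Runs of members along a chromosome with no early narrow WT-MYC-overlapping peak between them were long in places and are given by their number of members, not by length. The run with the most members lies on chromosome 1 from 110881922 to 160232446 (49.4 Mb) and holds 19. The next lie on chromosome 6 from 16129135 to 43197415 (27.1 Mb, 15 members) and on chromosome 3 from 49824031 to 141944699 (92.1 Mb, 14 members). These stretches were not free of MYC. The run on chromosome 1 holds 327 WDR5 peaks of all lines and widths, 55 of which overlap WT-MYC. The run on chromosome 6 holds 306 with 28 such, and the run on chromosome 3 holds 376 with 35 such. Of all 17171 WDR5 peaks, 2329 overlap WT-MYC (13.6%). The run on chromosome 1 lies above that share, and the runs on chromosomes 6 and 3 lie below it. Densities of WT-MYC peaks in the runs on chromosomes 1, 6 and 3 were 1.09, 1.07 and 0.391 per Mb. A density over whole chromosomes or the genome was not computed, so these values cannot be called high or low.

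Most members lay between 10 kb and 1 Mb from the nearest MYC peak. The nearest MYC peak was within 1 kb of 18 members, at 1 to 10 kb for 38, at 10 to 100 kb for 241, at 100 kb to 1 Mb for 349 and beyond 1 Mb for 75. The median gap was 142427 bp (125749 to 162974 bp). For early narrow peaks with WT-MYC the nearest MYC peak that they did not overlap was a median of 105536 bp away (83537 to 121638 bp), a description, because the rule places both classes by MYC. The nearest MYC peak was a WT-MYC peak for 646 members and a WBM-MYC peak for 75 (10.4%). Ties counted as WT-MYC, and the WT-MYC list is longer (2527 peaks against 690) with wider peaks (medians of 496 and 456 bp). A WBM-MYC peak was nearest for 15.1% of early narrow peaks with WT-MYC and for 11.2% of narrow peaks without MYC on later lines. The nearest MYC peak lay on some WDR5 peak, necessarily one other than the member, for 590 of the 721 members (81.8%). The same held for 85.9% of early narrow peaks with WT-MYC and for 85.7% of narrow peaks without MYC on later lines.

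Members more often had a MYC peak within 100 kb than narrow WDR5 peaks on later lines, which lack MYC by the same rule. A MYC peak lay within 100 kb of 297 of the 721 members (41.2%, 37.6 to 44.9%) and of 3136 of the 9753 later peaks (32.2%, 31.2 to 33.1%), with 32.8% over both together. Members exceeded later peaks by 9.04 points (5.38 to 12.8), with p = 9.44e-07 in a two-sided Fisher's exact test and 1.89e-06 after adjustment over the 2 tests of distance. The odds ratio was 1.48 (1.26 to 1.73), and 1.30 when stratified by chromosome (1.10 to 1.53, exact conditional p = 0.0018). Over width quartiles it was 1.39 (1.17 to 1.64, exact conditional p = 0.000138), with both classes present in 2 of the 4 quartiles. Within 1 Mb the shares were 89.6% of members and 80.4% of later peaks. Within 10 kb the difference did not pass the test, at 7.77% of members and 7.11% of later peaks (0.661 points, -1.15 to 2.90, Fisher's exact p = 0.5002). Within 1 kb the share was 2.50% of members and 3.35% of later peaks, a difference that was not tested. Median gaps to MYC were 142427 bp in members and 219567 bp in later peaks.

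**Figure D4:**
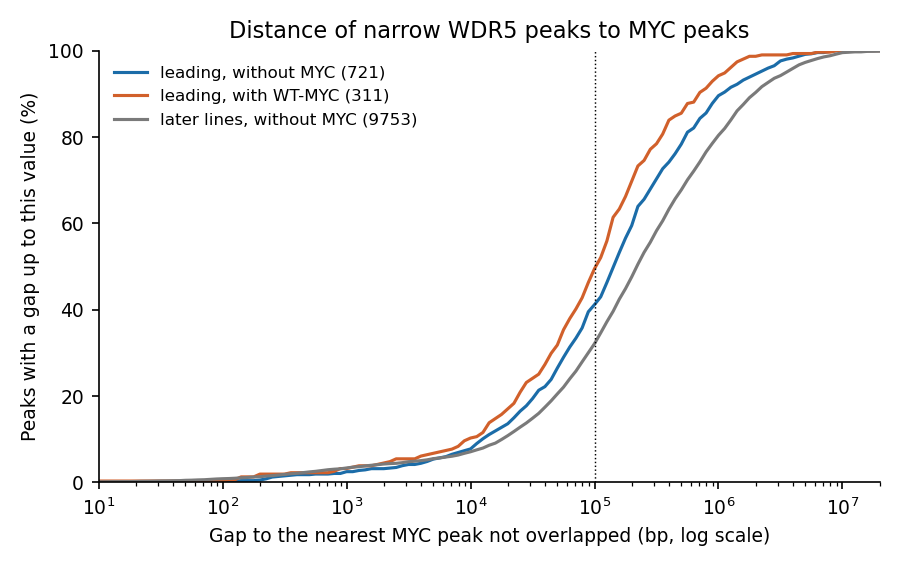
Cumulative share of peaks (y axis, %) by gap to the nearest MYC peak that they do not overlap (x axis, bp, log scale), for early narrow WDR5 peaks without MYC (721), early narrow peaks with WT-MYC (311) and narrow peaks without MYC on later lines (9753); the dotted line marks 100 kb. There the curves stand at 41.2% for members, 49.5% with WT-MYC and 32.2% on later lines.

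The 5 members nearest to MYC each stood beside a WT-MYC peak without touching it. On chromosome 6 a member at 166796172 to 166796611 lay 42 bp from WT-MYC, and on chromosome 19 one at 42580172 to 42580584 lay 116 bp from it. A member at 85766073 to 85766557 of chromosome 2 lay 140 bp away. On chromosome 3, members at 183966441 to 183966923 and at 49824031 to 49824453 lay 187 and 201 bp away. The WT-MYC peaks beside the members on chromosome 2 and at 49824031 of chromosome 3 lay on no WDR5 peak, and the other 3 lay on one.

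The 5 members farthest from MYC stood on 4 chromosomes. The farthest spans 41522713 to 41523269 of chromosome 15, 8389744 bp from a WBM-MYC peak. On chromosome 11, members at 95656969 to 95657552 and 28131628 to 28132036 lay 7585781 and 5994922 bp from WT-MYC. A member at 174291941 to 174292363 of chromosome 4 lay 7495618 bp away, and one at 71814909 to 71815421 of chromosome 18 lay 5910102 bp away. Of these 5, the member at 28131628 had another WDR5 peak 1365 bp away. The other 4 had theirs at between 35241 and 143943 bp, above the median gap of 17266 bp over all members. A relation between the distance to MYC and the distance to WDR5 was not tested.

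Along the whole list, narrow WDR5 peaks without MYC changed in both distances. In 10 equal parts of the list, another WDR5 peak lay within 5 kb of 36.5% of these peaks in the first and 72.7% in the last. A MYC peak lay within 100 kb of 41.2% in the first part, of 29.7% in the eighth and of 35.8% in the last. Median widths of the same peaks were 455 bp in the first part and 261 bp in the last, so width and file position move together here.

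**Figure D5:**
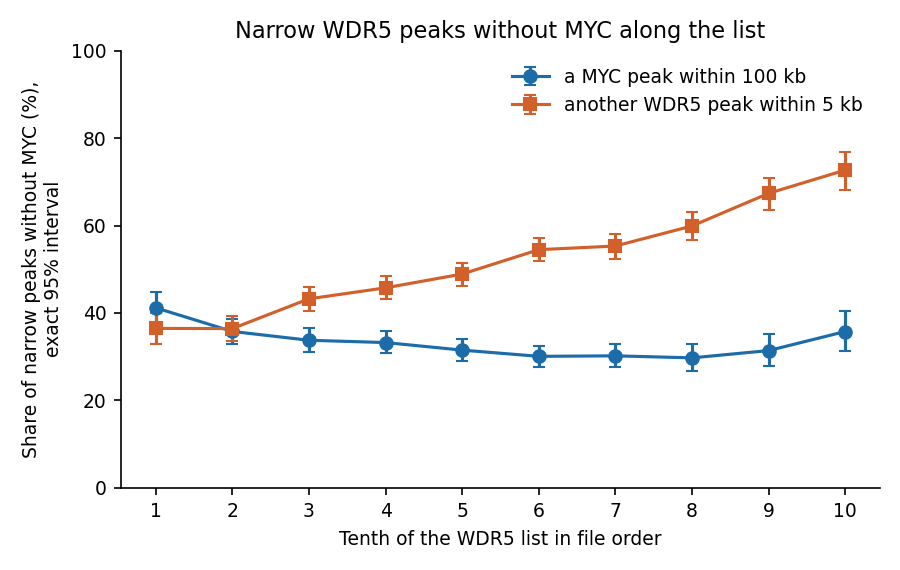
Share of narrow WDR5 peaks without MYC (y axis, %, bars are exact 95% intervals) that have a MYC peak within 100 kb (circles) or another WDR5 peak within 5 kb (squares), in 10 equal parts of the WDR5 list in file order (x axis). The first point of each curve is the 721 members, at 41.2% and 36.5%.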

How the data were processed

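The authors deposited peak lists of 3 columns (chromosome, start, end), with neither scores nor p-values. The submitters' processing notes name hg19, Bowtie 0.12.7 and CASAVA 1.8.2. How peaks were called, against which controls and on which replicates is not given in the sources used here. Members stand on lines 1 to 1717 of the WDR5 list and are at most 623 bp wide. No hg19 genome or annotation was at hand, so the planned promoter shares, sequence content, E-box counts and gene lists were not run, and no peak was given a gene or a sequence.

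Starts are printed counted from 1. Overlap means at least 1 shared bp, and gaps run from edge to edge. Shares have exact (Clopper-Pearson) 95% intervals, differences have Newcombe intervals, and medians have binomial order-statistic intervals, all covering counting error over peaks only. Classes were compared by Fisher's exact test, two-sided, with a threshold of 0.05 and Benjamini-Hochberg adjustment over chromosomes. Stratified odds ratios are Mantel-Haenszel estimates from R 4.3.3. The intervals and p-values beside them come from the exact conditional test, whose own odds ratio is not printed. All else came from Python 3.11.15 with scipy 1.17.1 and statsmodels 0.14.6. The code was tested on simulated data, and bedtools 2.31.1 gave the same 721 members. Members, classes and tests were chosen with earlier results of these data known. Peaks named by position are the first 5 in file order, those at the limits of the rule, the 5 nearest to and farthest from MYC, and the 3 runs with the most members. Chromosomes 1, 3, 7, 11, 14, 15, 18, 19, 22 and X were named after their values were seen.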

Additional observations from a re-analysis of the deposited data

How the results depend on the processing

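No paired analysis was possible because the labels give no shared replicate numbers and each list stands for a whole group, which also kept replicates from being left out. The share of early narrow peaks without MYC was 71.0% when 50% of the shorter peak had to be shared, 61.4% without a width limit, 59.9% in the first 5% of lines, 73.3% in the first 20% and 81.6% with the first 50% of each MYC list. The lower share of members with a WDR5 peak within 5 kb lost its call with 50% overlap (-3.09 points), the first 5% of lines (-7.31), the first 50% of each MYC list (-7.12), a limit of 1 kb (-3.81), strata by chromosome (odds ratio 0.803) and, added after the data were seen, neighbours from the same lines alone (-1.07). It reversed without a width limit (0.911). The number of chromosomes past the test was 0 for the first 5% of lines and for the first 50% of each MYC list, and 6 for the first 20% of lines (1, 3, 11, 14, 15 and 17); without a width limit it was 1, chromosome 14 in place of 17. The excess near MYC kept its call in 13 of 14 settings and lost it at 10 kb (0.661 points). The width difference was -109 bp without a width limit, and the difference of median gaps to MYC was 114721 bp with the first 50% of each MYC list. The causes were not tested. Leaving out chromosome 17, also added later, changed no call.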
